A study of Mus musculus with 2 samples.

Results

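The genes described here encode the machinery that docks synaptic vesicles, fuses them with the presynaptic membrane on calcium entry and retrieves them afterwards. They form a named list of 48 genes whose rule uses gene names and no measured value, and all 48 were found among the 43346 annotated genes of the tables. Total RNA came from 2 pools of neural tube, the embryonic forerunner of brain and spinal cord, of mouse embryos of strain B6NCrl at age 15.5 days. Replicate 1 pooled 78 embryos and replicate 2 pooled 62, of both sexes, labelled healthy, and the labels give no treatment or mutation. The libraries are biological replicates of 1 group, so no condition was compared and no test was run, and each SD is the spread over n = 2 pools.

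Vesicle fusion is driven by SNARE proteins: the vesicle protein synaptobrevin (VAMP) coils together with syntaxin 1 and SNAP-25 of the target membrane and pulls the membranes together. Synaptotagmins on the vesicle sense calcium, complexins hold the assembled SNAREs ready, and Munc13, RIM, Bassoon, Piccolo and ELKS build the active zone where fusion takes place. NSF and the SNAP adaptors pull used SNAREs apart, while dynamin, amphiphysin, synaptojanin and endophilin recover the membrane. Most of these proteins exist as paralogues, and in the adult spinal cord and hindbrain Vamp1, Syt2 and Cplx1 are known as major forms.

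The expected counts, which split ambiguous reads over transcripts, summed to 35430338 in replicate 1 and 42321669 in replicate 2, spike-ins included. Levels are given in TPM, a unit that corrects for transcript length and library size. Of the position markers, 5 of 5 trunk Hox genes reached 1 TPM in both libraries, against 1 of 7 forebrain and midbrain markers, Lhx2. All 10 neuron markers and all 6 markers of peripheral ganglia also reached it. Other tissues differed between the libraries: the summed level of 8 thymus markers was 254 TPM in replicate 1 and 0.52 TPM in replicate 2, and that of 6 epithelial markers was 682 and 8.37 TPM. Their part in the levels below was not tested.

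All 48 release genes were at 1 TPM or more in both libraries, against 35.8% of all annotated genes and 63.4% of protein-coding genes. They also all passed 5 TPM. Their median level was 45.9 TPM in replicate 1 and 51.5 TPM in replicate 2, and their means ran from 7.6 ± 0.481 TPM for Bsn to 479 ± 50.7 TPM for Snap47. By mean level, 13 of the 48 reached 100 TPM, against 12.3% of the protein-coding genes at 1 TPM or more in both libraries. Among those protein-coding genes the median release gene stood at percentile 73.5, and 35 of the 48 lay above their median. The list was made with earlier results of these data known, so these figures describe the genes as chosen. Of 32 matched paralogues outside the list, 25 (78.1%) were at 1 TPM or more in both libraries. Together the 48 genes took 0.42% of all TPM in replicate 1 and 0.471% in replicate 2. The smallest count behind any of these 48 gene levels was 647. In 37 of the 48 genes the expected count was whole within 0.01 in both libraries, so their gene totals held no fraction of a read. Reads could still be split among the transcripts of such a gene. Snap25, at 11784 in replicate 1, had 11487.01 for Snap25-201 and 109.73 for Snap25-202.

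**Figure D1:**
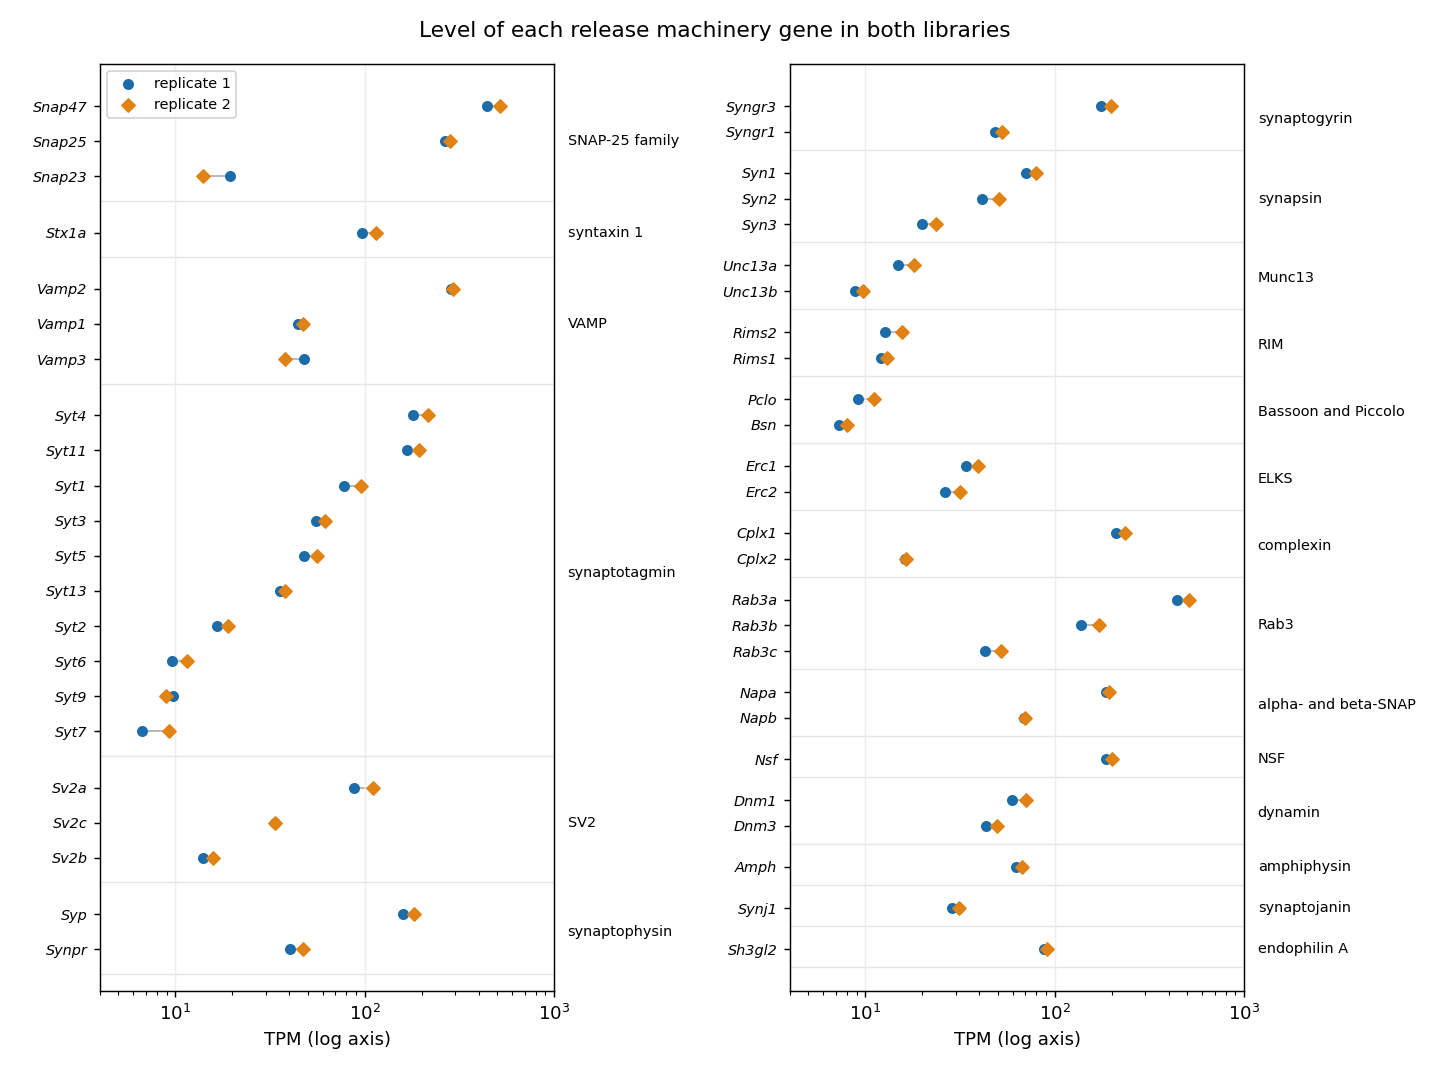
Level of each of the 48 release genes in replicate 1 (circles) and replicate 2 (diamonds), in TPM on a log axis, grouped by protein class and ordered by mean level within a class. The points of the 2 libraries of a gene lie close together on an axis that spans the means of 7.6 to 479 TPM, and 45 of 48 circles lie to the left of their diamonds.

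The paralogue with the highest level was the same in both libraries in all 15 classes with 2 or more listed members, and the full order was the same in 13. In 13 of the 15 classes the lower value of the leading gene also exceeded the higher value of the second gene. The exceptions were the synaptotagmins and the RIM genes, where the first and second genes overlapped. Among listed members, 1 paralogue held over 75% of its class in both libraries in 4 classes, namely VAMP, synaptophysin, synaptogyrin and complexin. In counts, which are not divided by length, Vamp2 held a mean of 73.4% and Syngr3 67.2% of their classes. With paralogues outside the list added, Vamp2 held 57.1% and 62.7% of TPM in replicates 1 and 2. Syp then held 64.7% and 69.6%, Syngr3 65.7% and 75.6%, and Cplx1 92.9% and 93.4%. Among listed members, the leader held under 60% in both libraries in 6 classes: synaptotagmin, synapsin, RIM, Bassoon with Piccolo, ELKS and dynamin.

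**Figure D2:**
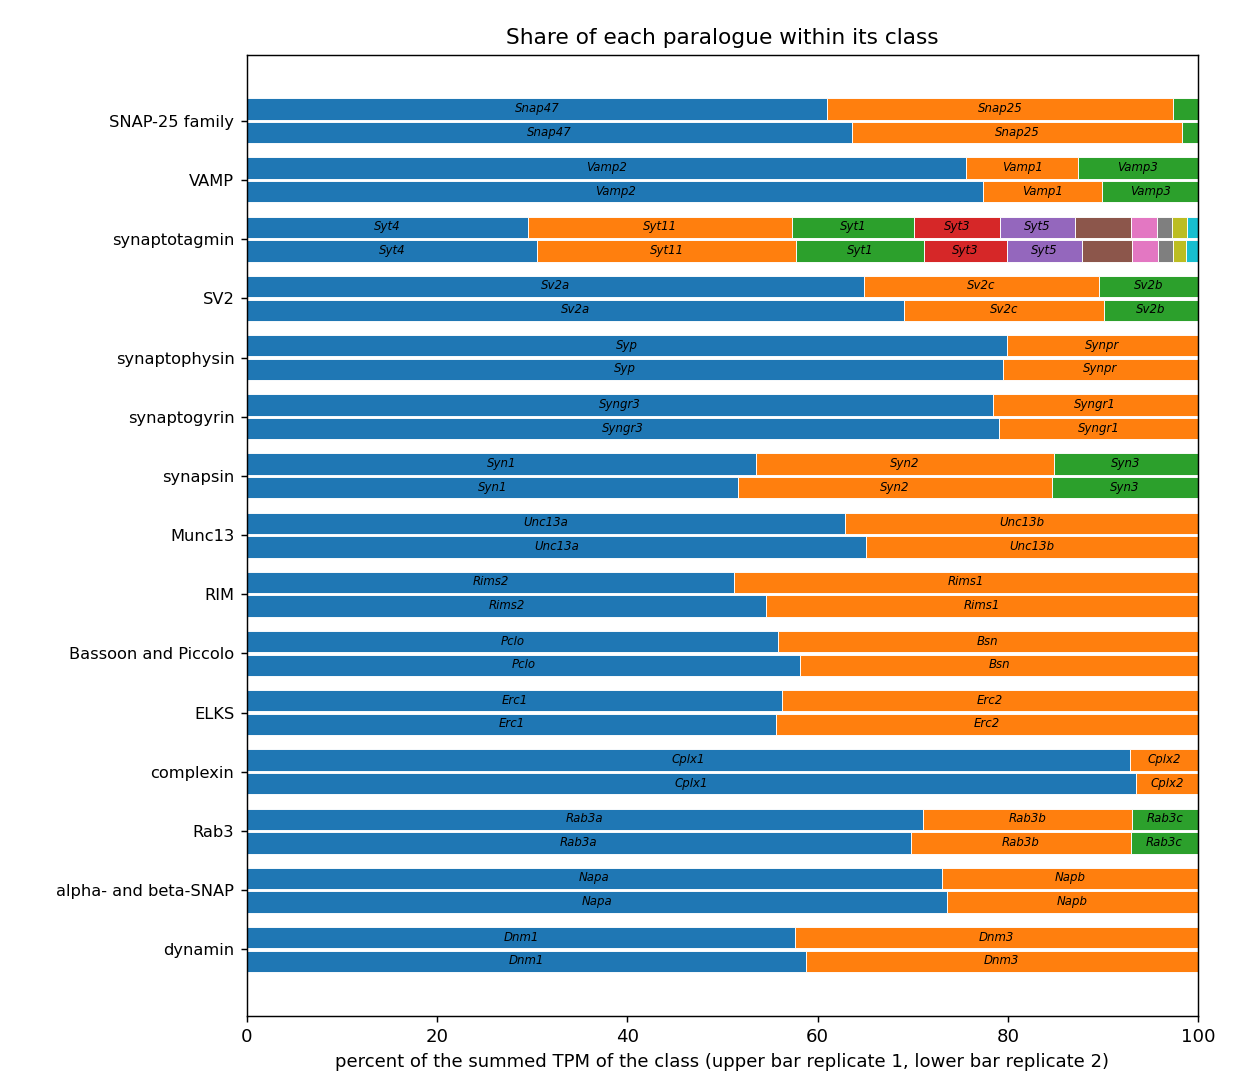
Percent of the summed TPM of a class held by each listed paralogue, with replicate 1 in the upper and replicate 2 in the lower bar of each class. Colours only separate neighbours within a bar, and shares under 6% carry no name. Complexin is the most one-sided class, with Cplx1 at 92.9% and 93.5%, and RIM is close to even, with Rims2 at 51.2% and 54.6%.

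Within the SNAP-25 family, Snap47 exceeded Snap25. Snap47, a broadly expressed relative of SNAP-25 that lacks its palmitoylated cysteines, stood at 444 TPM in replicate 1 and 515 TPM in replicate 2. Snap25, the neuronal form required for evoked release, stood at 264 and 281 TPM. The libraries did not overlap between these genes, and Snap47 was 1.76 ± 0.11 times as high in TPM. It took 62.3 ± 1.84% of the class, against 35.5 ± 1.17% for Snap25. Of the 2651 exonic bases of Snap47 (chromosome 11, 59407134 to 59451186, minus strand, on GRCm38), 307 overlap the gene Jmjd4 on the opposite strand. Jmjd4 itself stood at 16.9 and 16.5 TPM. Whether counting used strand is not stated, so reads of the overlap cannot be assigned to either gene with certainty. Snap23, the ubiquitous form, was at 19.4 and 13.9 TPM, and Snap25 exceeded it 13.6-fold in replicate 1 and 20.2-fold in replicate 2. Stx1a, the plasma membrane syntaxin of neurons and the only listed syntaxin, stood at 96.9 and 115 TPM.

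Snap25 (chromosome 2, 136713453 to 136782428, plus strand) carries 2 mutually exclusive versions of exon 5, named 5a and 5b, which change the cysteine-rich stretch that anchors the protein. As background, the 5a form is known as the major one of the embryonic mouse brain and the 5b form as that of the adult. The exons are shown because the transcript estimates turn on them. Both are 118 bases long, 31 bases differ, and identity is 73.7%. Sequences are from GENCODE release M21 transcripts on GRCm38, with the differing bases in capitals.
Exon 5a, chr2:136769743-136769860, plus strand, in Snap25-202: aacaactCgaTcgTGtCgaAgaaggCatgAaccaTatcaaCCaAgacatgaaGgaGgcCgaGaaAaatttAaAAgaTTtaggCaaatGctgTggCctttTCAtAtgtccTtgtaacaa
Exon 5b, chr2:136770057-136770174, plus strand, in Snap25-201: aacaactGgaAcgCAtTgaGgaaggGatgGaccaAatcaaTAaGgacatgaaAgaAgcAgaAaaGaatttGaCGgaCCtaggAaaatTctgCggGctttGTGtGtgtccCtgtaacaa
The transcript with exon 5b held 97.3% of Snap25 TPM in replicate 1 and 97.0% in replicate 2 (97.1 ± 0.193%, n = 2). The transcript with exon 5a held 2.05% and 1.94%, from 110 and 132 expected counts, against 11487 and 14542 for the 5b transcript. Among coding transcripts alone the 5b share was 98.0 ± 0.0742%. The models also differ at the other end: the last exon is 1354 bases long in Snap25-201 and 277 in Snap25-202. Reads in the longer end fit the 5b model alone, whichever exon 5 their molecule held, and the reads on each exon were not analysed here, so the share is a model estimate and no direct exon count.

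Vamp2 led the vesicle SNAREs. Vamp2, the main synaptobrevin of forebrain synapses, stood at 285 TPM in replicate 1 and 291 TPM in replicate 2 and held 76.5 ± 1.26% of the class. Vamp1, the form of motor and fast hindbrain synapses, stood at 44.2 and 47.1 TPM, or 12.1 ± 0.558%, and Vamp2 exceeded it 6.32 ± 0.187-fold in TPM. Vamp3, the form of recycling endosomes in most cells, was at 47.6 and 37.8 TPM. Vamp1 and Vamp3 changed places between the libraries, with Vamp3 above Vamp1 in replicate 1 and below it in replicate 2. In counts Vamp1 lay above Vamp3 in both libraries, at 2669 and 3399 against 2066 and 1918.

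The synaptotagmins were led by members that bind calcium weakly or not at all. Syt4, a synaptotagmin of secretory granules whose first calcium-binding domain has lost a key acidic residue, stood at 179 TPM in replicate 1 and 216 TPM in replicate 2. Syt11, which shares that change, stood at 168 and 193 TPM. The values of Syt4 and Syt11 overlapped across libraries, so their order did not exceed the spread. Of the 3892 exonic bases of Syt4, 566 overlap the antisense gene Gm26658 at 1.43 and 1.86 TPM. Both Syt4 and Syt11 lay above Syt1, the fast calcium sensor of most synapses, at 78.2 and 95.2 TPM. Per library, Syt4 exceeded Syt1 2.28 ± 0.0165-fold and Syt11 exceeded it 2.09 ± 0.0898-fold.

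Grouped by what the proteins are known to do, Syt4, Syt11 and Syt13 held 63.1 ± 0.081% of synaptotagmin TPM. The fast sensors Syt1, Syt2 and Syt9 held 17.3 ± 0.128%, and the other calcium-binding members Syt3, Syt5, Syt6 and Syt7 held 19.6 ± 0.048%. This grouping was made after the values were seen. Syt2, the fast sensor of adult spinal and neuromuscular synapses, was at 16.6 and 19.0 TPM, and Syt1 exceeded it 4.86 ± 0.203-fold. Syt3 and Syt5 were intermediate, at 58.4 ± 4.77 and 51.8 ± 5.78 TPM, and Syt13 stood at 36.8 ± 1.34 TPM. Syt6, Syt9 and Syt7, the slow sensor of asynchronous release, were lowest at 10.6 ± 1.35, 9.34 ± 0.516 and 7.96 ± 1.82 TPM. Syt9 overlapped both Syt6 and Syt7, whereas the lower value of Syt6 lay above the higher value of Syt7. Syt7 stood above Syt6 in counts, at 2.24% and 1.76% of the class, and on coding transcripts, at 1.24% and 0.979%, so the order of these genes is not settled.

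Vesicle membrane proteins showed a clear leading paralogue in each family. Sv2a, the most widespread SV2 glycoprotein, stood at 87.9 and 110.3 TPM, Sv2c, known from basal ganglia, at 33.65 and 33.7 TPM and Sv2b, a form of the adult forebrain, at 14.0 and 15.7 TPM, and these ranges did not overlap. Sv2a held 64.8% of the family in replicate 1 and 69.1% in replicate 2. Syp, the abundant vesicle protein synaptophysin, was at 160.1 and 183 TPM, and exceeded its relative Synpr (synaptoporin), at 40.3 and 47.2 TPM, 3.92 ± 0.072-fold. Of the synaptogyrins, vesicle proteins with the same membrane fold, Syngr3 was at 176 and 199 TPM and exceeded Syngr1, at 48.4 and 52.6 TPM, 3.71 ± 0.108-fold, but 2.07-fold and 2.02-fold in counts. Of the 5211 exonic bases of Syp, 875 overlap the antisense gene Gm14703 at 2.95 and 3.42 TPM.

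Sv2b was the member most evenly split between transcript models. Sv2b-202 held 50.9% and 55.0% of its TPM and Sv2b-201 held 49.1% and 45.0% in replicates 1 and 2. Both models have the same coding region and differ in the first exon, whose starts lie 883 bases apart on chromosome 7. The promoter windows of these starts are shown because the split between models lies there: 250 bases before and 50 after each start, from RefSeq on GRCm38.p6, minus strand. Capitals mark TATAAA, searched on both strands and found here on the strand opposite to the gene, as TTTATA.
Start of Sv2b-202, chr7:75309213-75309512: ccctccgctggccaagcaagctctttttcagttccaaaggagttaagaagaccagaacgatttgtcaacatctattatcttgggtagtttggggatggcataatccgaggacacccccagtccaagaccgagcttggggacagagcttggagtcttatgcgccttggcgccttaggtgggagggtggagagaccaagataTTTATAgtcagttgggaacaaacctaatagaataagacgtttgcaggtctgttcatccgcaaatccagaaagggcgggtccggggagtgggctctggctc
Start of Sv2b-201, chr7:75308337-75308636: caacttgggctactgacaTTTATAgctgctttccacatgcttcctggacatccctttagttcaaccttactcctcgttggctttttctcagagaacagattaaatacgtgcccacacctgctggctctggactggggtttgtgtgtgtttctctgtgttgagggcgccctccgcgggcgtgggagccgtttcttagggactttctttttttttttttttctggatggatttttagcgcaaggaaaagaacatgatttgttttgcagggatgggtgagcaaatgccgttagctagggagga
The match begins 50 bases before the start in the first window and 232 in the second, whose RefSeq start lies 7 bases from that of the transcript. Of 32851 RefSeq promoter windows of this length, 13.6% hold the motif on either strand.

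The synapsins, which tether vesicles in the reserve pool, were ordered Syn1, Syn2 and Syn3. Syn1 stood at 70.4 TPM in replicate 1 and 79.5 TPM in replicate 2, Syn2 at 41.3 and 50.8 TPM, and Syn3, the form known from early neurons, at 19.9 and 23.6 TPM. None of these ranges overlapped, and Syn1 held 52.6 ± 1.29% of the family. Of the exonic bases of Syn3, 1733 of 12282 overlap Timp3 on the opposite strand, a gene at 46.9 and 42.2 TPM. Syn1 has transcripts for synapsin Ia and synapsin Ib, which differ in an acceptor site of the last exon. Syn1-201, with 706 codons, carries the 38 bases shown in capitals between 20 bases on either side, and Syn1-202, with 670 codons, lacks them. The sequence is from GENCODE M21 and the capitals lie at chrX:20861572-20861609, minus strand.
Syn1-201, junction of the last exon: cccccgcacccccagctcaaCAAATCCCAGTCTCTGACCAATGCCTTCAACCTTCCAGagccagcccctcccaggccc
Syn1-201 held 55.4% and 60.3% of Syn1 TPM in replicates 1 and 2, and Syn1-202 held 44.6% and 39.7%. The models also start at different places, so the split does not rest on the 38 bases alone. Syn1 was chosen for display after its values were seen.

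In TPM, the large scaffolds of the active zone were among the lowest members of the list. Bsn (Bassoon) stood at 7.26 and 7.94 TPM in replicates 1 and 2 and Pclo (Piccolo) at 9.18 and 11.1 TPM, with no overlap. In counts, not divided by length, Pclo had 2847 and 4053, above Vamp1 at 2669 and 3399. The low place of Pclo thus rests on the division by length. Bsn, at 1492 and 2020 counts, lay below Vamp1. The priming factors Unc13a and Unc13b stood at 16.5 ± 2.27 and 9.25 ± 0.672 TPM, and Unc13a, the Munc13 of most excitatory synapses, exceeded Unc13b 1.78 ± 0.116-fold in TPM, and 3.27-fold and 3.42-fold in counts. The RIM genes encode the scaffolds that tie priming to calcium channels. Rims1 was at 12.1 and 13.0 TPM and Rims2 at 12.8 and 15.6 TPM in replicates 1 and 2, and these ranges met, so neither led beyond the spread. Erc1 and Erc2, the ELKS genes, were higher, Erc1 at 33.8 and 39.5 TPM and Erc2, the neuronal form, at 26.2 and 31.6 TPM. Of the exonic bases of Erc1, 11.8% overlap an antisense gene.

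Levels of the scaffolds depend on which transcript models count. Models not annotated as protein coding, mainly targets of nonsense-mediated decay in Erc1 and retained introns in Pclo, held 50.4 ± 1.74% of Erc1 TPM and 48.4 ± 1.83% of Pclo TPM. When only protein-coding models were summed, Erc2 led the ELKS genes and Bsn led Pclo in both libraries, while the other 13 classes kept their leader. In Erc1, the model Erc1-206, annotated for decay, held 46.5% and 48.7%, above the coding model Erc1-203 at 36.7% and 38.0%. Unc13b followed with 43.6 ± 1.3% outside coding models and Syt6 with 41.2 ± 3.78%. In all, 8 of the 48 genes had at least 25% of their TPM outside coding models in both libraries, and the median gene of the list had 99.2% in coding models. The same figures over all genes were not computed, so they describe the list alone.

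Complexin 1 and Rab3a stood far above their paralogues. Cplx1, the complexin of inhibitory, motor and sensory neurons, was at 212 TPM in replicate 1 and 234 TPM in replicate 2, against 16.3 and 16.4 TPM for Cplx2, a 13.6 ± 0.878-fold excess in TPM. In counts, not divided by length, the excess was 5.64-fold and 6.18-fold. Rab3a, the main vesicle GTPase of the brain, stood at 441 and 514 TPM and held 70.4 ± 0.877% of its family. Rab3b was at 137 and 170.4 TPM and Rab3c at 42.8 and 52.1 TPM, and these ranges did not overlap. In counts the order of these paralogues turned round, with 3345 and 4991 for Rab3b against 7984 and 11598 for Rab3c, so it rests on the division by length. The excess in counts of Rab3a over Rab3c shrank to 1.56-fold and 1.5-fold, against 10.3-fold and 9.87-fold in TPM.

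Nsf, the ATPase that takes SNARE complexes apart, stood at 186 and 200.5 TPM, and its adaptor Napa at 187 and 194 TPM. These ranges overlapped in TPM, but counts were 13383 and 17240 for Nsf against 7509 and 9310 for Napa, and 31.5 ± 0.269% of Napa TPM lay outside coding models. The neuronal adaptor Napb stood at 69.1 and 69.4 TPM, and Napa exceeded it 2.75 ± 0.055-fold in TPM, but 1.15-fold and 1.19-fold in counts. Dnm1, the dynamin that pinches vesicles off at synapses, was at 59.4 and 70.6 TPM, above Dnm3 at 43.6 and 49.6 TPM in each library. In counts the order turned round, with a Dnm1 to Dnm3 ratio of 0.666 and 0.684, so this order rests on the division by length. The partners of dynamin stood at 64.9 ± 3.61 TPM for Amph (amphiphysin, which recruits dynamin), 89.5 ± 2.35 TPM for Sh3gl2 (endophilin A1) and 29.8 ± 1.87 TPM for Synj1, the lipid phosphatase that strips the clathrin coat.

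Of the 32 further paralogues of these families that could be matched to a gene, 25 were at 1 TPM or more in both libraries. Paralogues outside the list led in 2 of 19 completed classes: Rims3 at 14.9 and 19.1 TPM, a short RIM without the parts that bind Rab3 and Munc13, and Bin1 at 94.2 and 97.4 TPM, the ubiquitous amphiphysin. The values of Rims3 overlapped those of Rims2 across libraries, so the lead of Rims3 did not exceed the spread. Sh3gl1, the broadly expressed endophilin, was above Sh3gl2 in replicate 1 and below it in replicate 2 (90.6 and 82.8 TPM). Syt16, an atypical synaptotagmin without calcium binding, stood at 55.1 and 66.1 TPM, or 0.7 ± 0.0072 times Syt1. Dnm2 (49.9 and 45.9 TPM) and Vamp4 (71.5 and 66.6 TPM), forms used in all cells, overlapped Dnm3 and exceeded Vamp3. Cplx3 and Cplx4, complexins of retinal ribbon synapses, were at 0.05 and 0.19 TPM and listed at 0 in both libraries.

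All 37 other genes of the pathway were at 1 TPM or more in both libraries, with 13 at a mean of 100 TPM or more. The clathrin adaptor subunits Ap2m1, at 620.0 and 664 TPM, and Ap2s1, at 340 and 354 TPM, were the highest of the endocytic coat. The synuclein Sncg, at 291 and 344 TPM, was the highest of the chaperones of release. Of the vesicle proton pump, Atp6v0d1 stood at 180 and 199 TPM. Cadps, the priming factor CAPS-1 of dense-core vesicles, stood at 17.4 and 24.6 TPM and Doc2a, a calcium sensor of spontaneous release, at 29.1 and 30.5 TPM. Of the active zone partners, the liprin Ppfia3 stood at 25.1 and 27.7 TPM and Rimbp2, which links RIM to calcium channels, at 2.75 and 3.49 TPM.

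Of the 48 genes, 26 had 2 or more transcript models with at least 10% of TPM in both libraries. The share of all genes that meet this rule was not computed, so the count describes the list alone. In Syt6, the second most even gene, Syt6-206, annotated for decay, held 42.9% and 38.5% and the coding Syt6-202 held 32.7% and 37.5%, so the models did not overlap but came close in replicate 2. Among these 26 genes, Syn3 and Syt9 had the largest shifts between libraries. Outside them, with 1 model at 10% or more in both libraries, Snap23-202 held 81.6% and 64.0% of Snap23. Syn3-201 held 57.9% in replicate 1 and 46.3% in replicate 2. Syt9-202, a model with a retained intron, held 14.9% and 33.0%, while Syt9-205, also with a retained intron, held 23.5% and 0%, and all Syt9 models outside the coding class held 38.4% and 33.0%. The split of Syt9 rests on few counts, at most 188 for either of these models.

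**Figure D3:**
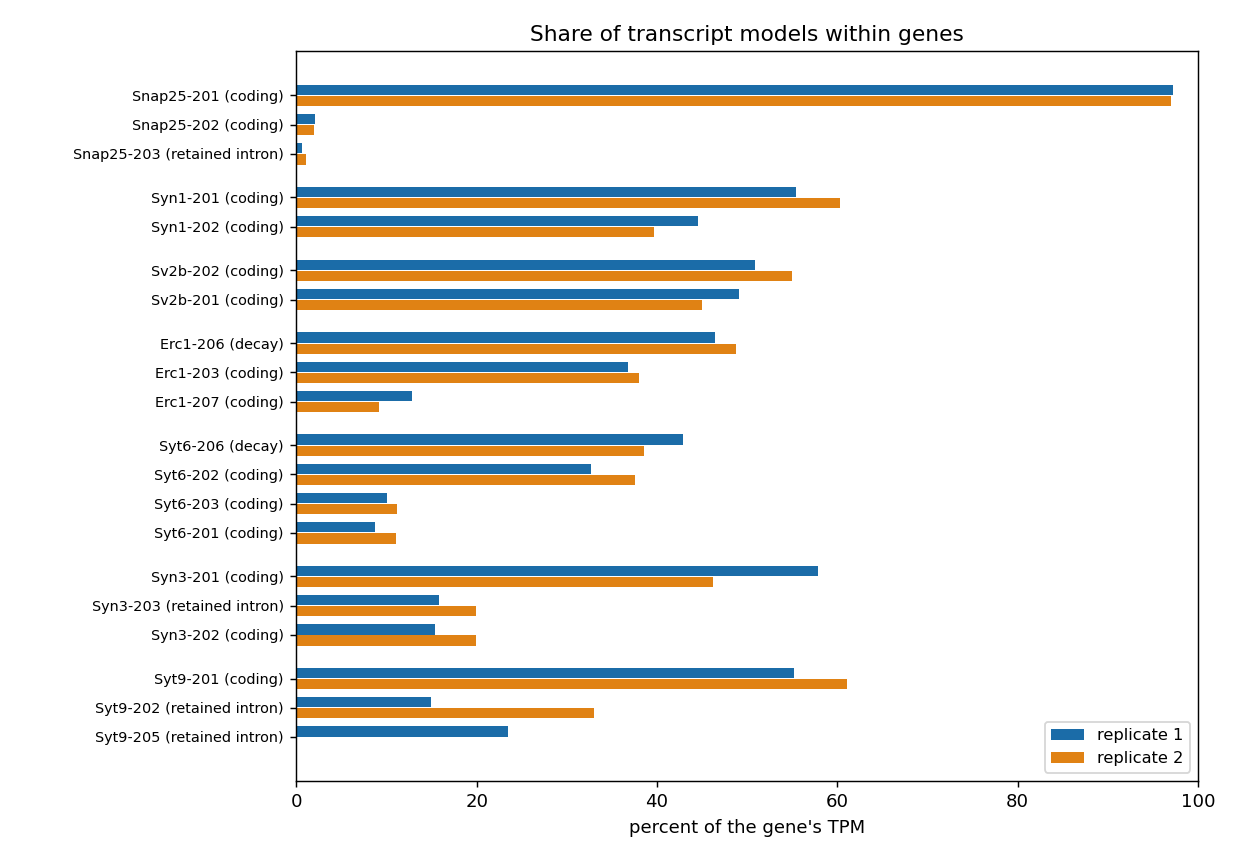
Share, in percent, of the TPM of a gene by transcript model in replicate 1 and replicate 2, for all Snap25 models and for models with at least 10% in either library of 6 further genes. Names carry the annotated type, where decay stands for nonsense-mediated decay. Snap25-201, with exon 5b, holds 97.3% and 97.0%, while Sv2b and Syn1 are split between 2 coding models.

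Between the libraries, the release genes differed by a small amount and mostly in 1 direction. In log2((TPM + 1) ratio), replicate 1 over replicate 2, their median was -0.18, against 0.02 for all 17222 genes at 1 TPM or more in either library. Lower in replicate 1 were 45 of the 48, against 46.1% of those genes and 44.4% of the protein-coding ones. When TPM was divided by that of the spike-ins, 33 of 48 were lower, and the share of all genes was not computed. The median was then -0.06 for the release genes and 0.13 for all genes. Without that scaling, a difference of 0.5 or more in either direction was seen in 0 of the 48. The shares were 17.2% of all and 15.3% of protein-coding genes at 1 TPM or more in either library. All 48 reached that level in both libraries, where 1514 of 13622 protein-coding genes differed by 0.5 or more. The median size of the difference over all genes, in either direction, was 0.18. The 10 neuron markers had a median of -0.27 with 10 of 10 lower in replicate 1, and the 37 other pathway genes had a median of -0.15. Radial glia and astrocyte markers had a median of -0.12 with 5 of 6 lower in replicate 1, and peripheral ganglion markers a median of -0.18 with 5 of 6 lower. The 6 thymus and the 6 epithelial markers at 1 TPM or more in either library had medians of 4.75 and 4.85. Skeletal muscle markers ran the other way, with a median of -0.68 over 5 genes and sums of 135 and 238 TPM. The 5 trunk Hox genes had a median of -0.35 and ran from -1.42 for Hoxa5 to -0.17 for Hoxb7. Of these, 2 differed by 0.5 or more, Hoxa5 (22.0 and 60.6 TPM) and Hoxc8 (46.5 and 88.6 TPM). Markers of chromaffin and neuroendocrine cells, which share much of the release machinery, summed to 323 and 381 TPM. Most of that sum came from Chga (144 and 164 TPM), Scg2 (88.9 and 116 TPM) and Chgb (80.3 and 89.6 TPM). In the same list, Th stood at 7.03 and 8.53 TPM, Pnmt at 1.84 and 2.4 TPM and Dbh at 0.24 and 0.31 TPM. Thymus and epithelial markers were thus higher in the library where release genes were lower, and their part in the difference was not tested. In bulk RNA, fewer cells of a type and less RNA per cell cannot be told apart.

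The 3 exceptions were Snap23, Vamp3 and Syt9, higher in replicate 1 by 0.46, 0.32 and 0.10. Snap23 and Vamp3 are used by most cell types, whereas Syt9 was grouped above with the fast sensors. Why these genes were higher in replicate 1 was not tested. Among the other paralogues, 5 of the 26 at 1 TPM or more in either library differed by 0.5 or more, a share near the 17.2% of all genes. All 5 were higher in replicate 1. Syngr2, the synaptogyrin of non-neuronal cells, stood at 43.0 and 11.2 TPM, Vamp8, the VAMP of secretory and blood cells, at 43.3 and 15.6 TPM, and Unc13d, the Munc13 of cytotoxic lymphocytes, at 5.83 and 0.9 TPM. The other 2 were Sypl (46.7 and 31.9 TPM) and Synj2 (2.31 and 1.22 TPM). Rab27a, the GTPase of lytic granules and melanosomes, stood at 9.66 and 2.73 TPM and Stxbp2, the Munc18 of epithelial and blood cells, at 54.1 and 33.2 TPM. These 7 genes were named after their values were seen.

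**Figure D4:**
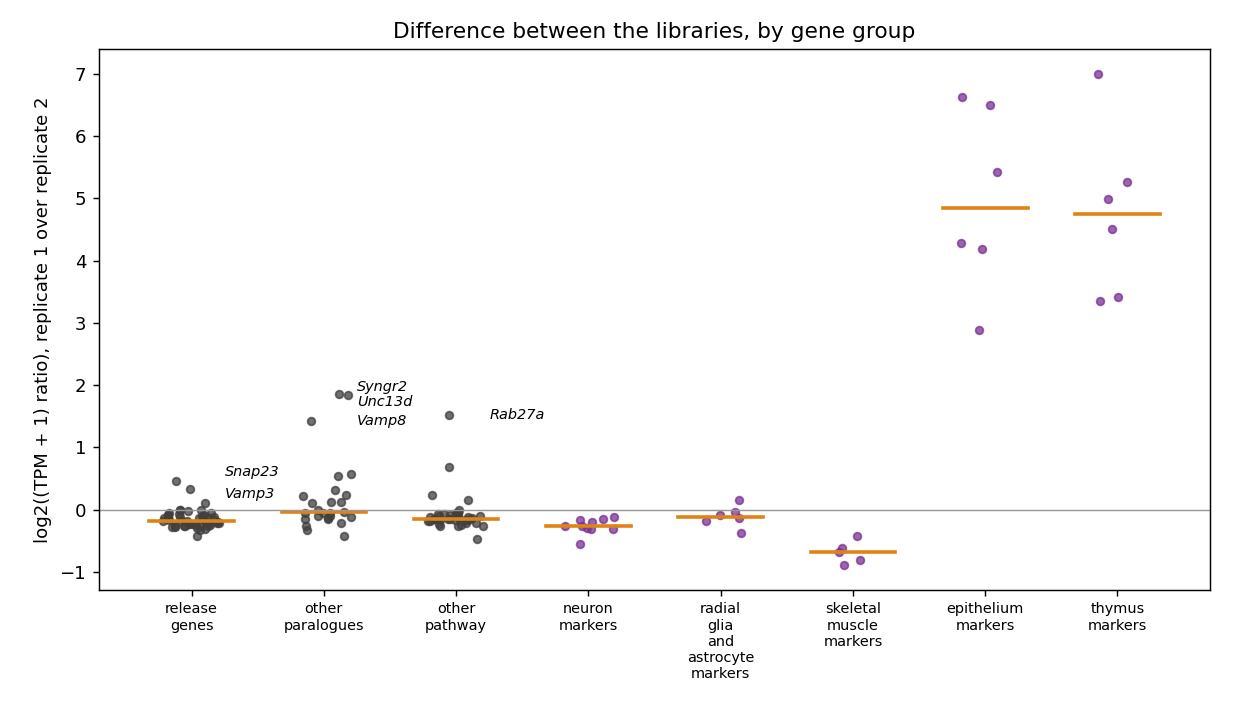
Difference between the libraries for each gene at 1 TPM or more in either, as log2((TPM + 1) ratio) of replicate 1 over replicate 2, by gene group, with the group median as an orange line. Release genes lie in a narrow band with a median of -0.18, whereas epithelial and thymus markers lie at medians of 4.85 and 4.75.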

How the data were processed

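Members and lists were chosen with earlier results of these data known, although the rule for members names genes and uses no measured value. Both libraries started from 10 ng of RNA longer than 200 nucleotides. The authors deposited expected counts, TPM, posterior mean TPM and FPKM per gene and per transcript, and transcript shares in percent of gene TPM, on mm10 with annotation M4, per the submitters' notes. Aligner, quantifier and strand setting are not stated there. Deposited TPM values sum over all entries, spike-ins included (5.00% and 5.42% of TPM). Symbols came from GENCODE M21 on GRCm38 (mm10), by identifier without version, and 42462 of 43346 genes matched. The gene Vamp7 was not analysed here, and some genes that the naming rule covers are not reported here.

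Shares are a gene's TPM over the summed TPM of its listed class, per library. Ratios between libraries used a pseudocount of 1 TPM. Named genes were all 48 members, the highest 1 or 2 of each class outside the list, paralogues exceeding a leader, and isoforms of Snap25 and 5 genes with the most even split or largest shift (3 and 2, a division made after seeing the data). Other genes, and Syn1 isoforms, were chosen after their values were seen. Number-only entries (26248) and 96 spike-ins were left out of the gene set. Expected counts were rounded for scaling by edgeR 4.0.16 (TMM) and DESeq2 1.42.0 size factors in R 4.3.3. The rest ran in Python 3.11.15. The scaling, the median ratios and the choice of leader were tested on simulated counts without biological spread between pools. TPM shares, transcript splits, overlaps and sequences were not tested in that way. With 1 group, no comparison was tested, and the precision is that of 2 pools.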

Additional observations from a re-analysis of the deposited data

How the results depend on the processing

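All 48 genes stayed at or above the threshold at 0.5 and 5 TPM, on posterior mean TPM, on CPM, on TPM rescaled to annotated genes, on coding transcripts alone and in either library alone. The leader agreed between the libraries in 15 of 15 classes on CPM, posterior mean TPM, FPKM and coding transcripts, and in 18 of 19 completed classes. On CPM, 14 of the 15 leaders were those by TPM, and on coding transcripts 13. Of 43 class shares, 35 moved by more than the SD on CPM, by up to 26.9 percentage points (Rab3c), 22 on coding transcripts, by up to 17.3 points (Erc2), and 3 on posterior mean TPM. The median ratio between libraries ranged from -0.24 with DESeq2 size factors to -0.06 per spike-in TPM, a scaling that set the median of all genes at 0.13 and under which 33 of the 48 genes were lower in replicate 1. The gap to all genes was -0.19 there and -0.20 without it. The share of Snap25 exon 5b was 98.0% on coding transcripts and 97.0% to 97.3% with a replicate left out. No paired analysis was possible because the libraries form 1 group. Levels of the 48 genes rest on 647 counts or more, and the spread on 2 pools. Some genes outside the list and some transcript models rest on far fewer, such as Cplx3 on 3 and 14 counts.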
